A study of Rattus norvegicus with 6 samples.

Results

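The miR-17-92 and miR-106b-25 clusters are 2 groups of neighbouring microRNA (miRNA) genes, and their hairpins were followed here in the small non-coding RNA (sncRNA) of rat sperm. The members were the hairpin rows, matched to the rat genome, of 10 names: rno-mir-17, rno-mir-18a, rno-mir-19a, rno-mir-19b, rno-mir-20a, rno-mir-92a, rno-mir-92b, rno-mir-25, rno-mir-93 and rno-mir-106b, with each numbered copy as a row of its own. This gave 13 rows of the 379 miRNA hairpin rows matched to the genome and of the 26561 sncRNA rows in all. All 13 passed the filter on low counts and were tested, as did 1858 rows of the series, 285 of them miRNA hairpins.

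The sperm came from the epididymis of male Wistar rats of wild type genotype, 5 months old at collection. The 3 HPD libraries came from rats given a high-protein diet for 2 to 3 months from the age of 10 weeks, and the 3 SD libraries from rats kept on the standard diet. Rats lived 2 to a cage, and somatic cells in the sperm pellet had been reduced by a hypotonic shock. The comparison asks which sncRNAs of sperm differed with the diet of the father. Libraries are named as the columns of the deposited tables name them: HPD2, HPD3 and HPD7 for HPD, and CTRL1, CTRL2 and CTRL3 for SD.

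MicroRNAs are cut from hairpins in longer transcripts, loaded into Argonaute proteins and guided to messenger RNAs mainly by the seed near their 5′ end. The miR-17-92 cluster, known in mammals for driving cell proliferation and for limiting apoptosis, is made as one transcript from which several hairpins are cut, and the miR-106b-25 cluster is its relative inside an intron of Mcm7, a gene of the DNA replication machinery. In mouse, both clusters are expressed in dividing spermatogonia, whereas sperm are non-dividing cells that carry RNA from earlier germ cell stages and RNA received in the epididymis.

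The mature sequences show why these hairpins are treated as families, and how few bases separate hairpins whose levels differed. They are given 5′ to 3′ from RefSeq (assembly GRCr8), which held all 13 members, with the seed (bases 2 to 8) in capitals. The first family shares the miR-17 seed, which is known to target cell cycle brakes and pro-apoptotic messages.
rno-miR-17-5p: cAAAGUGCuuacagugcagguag
rno-miR-20a-5p: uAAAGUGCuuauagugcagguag
rno-miR-93-5p: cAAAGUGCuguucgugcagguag
rno-miR-106b-5p: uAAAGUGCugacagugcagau
Rno-miR-18a has a seed of its own among the RefSeq miRNAs used here.
rno-miR-18a-5p: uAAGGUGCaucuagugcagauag
The miR-19 seed is carried by rno-miR-19a and rno-miR-19b, which in mouse carry much of the tumour-promoting activity of the cluster.
rno-miR-19a-3p: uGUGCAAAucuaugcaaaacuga
rno-miR-19b-3p: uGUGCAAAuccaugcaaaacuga
The miR-92 seed is shared by the last hairpin of each cluster and by rno-mir-92b, which stands alone in the genome.
rno-miR-92a-3p: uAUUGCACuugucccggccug
rno-miR-92b-3p: uAUUGCACucgucccggccucc
rno-miR-25-3p: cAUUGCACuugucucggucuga

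In GRCr8, rno-mir-17-1, rno-mir-18a, rno-mir-19a, rno-mir-20a, rno-mir-19b-1 and rno-mir-92a-1 lie in this order on the plus strand of chromosome 15. Rno-mir-106b, rno-mir-93 and rno-mir-25 lie on the minus strand of chromosome 12 within Mcm7. Rno-mir-17-2 (Mir106a in RefSeq), rno-mir-19b-2 and rno-mir-92a-2 lie on the minus strand of the X chromosome, in the paralogous cluster that also holds rno-mir-20b and rno-mir-363, and rno-mir-92b lies on chromosome 2. The counts had been made on the build Rnor_6.0, so no coordinates are given.

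For mir-17, mir-19b and mir-92a, both hairpins carry the same mature sequence, so a read of the mature miRNA alone cannot tell one copy from the other. The hairpins of mir-92a are printed because their rows gave the only members past the test. The mature sequence is in capitals.
rno-mir-92a-1: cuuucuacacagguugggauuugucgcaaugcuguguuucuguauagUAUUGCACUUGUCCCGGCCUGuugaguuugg
rno-mir-92a-2: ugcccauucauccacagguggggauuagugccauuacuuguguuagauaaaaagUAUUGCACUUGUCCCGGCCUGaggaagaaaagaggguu
The flanks shared 2 bases before the mature sequence and 0 bases after it. How the annotation divided reads between such copies is not given in the sources used here, and the split between numbered copies is therefore uncertain. Each row also pools all reads on a hairpin, so the arms were not separated.

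The libraries held 5703625, 7697588 and 7448764 annotated reads in HPD sperm and 7920000, 4141018 and 4254027 in SD sperm. miRNAs took 11.3 to 15.1% of the reads in HPD libraries and 20.9 to 28.9% in SD libraries, without overlap. The median log2 fold change of the 285 miRNA rows was −0.86, against 0.03 over all 1858 rows. Summed normalized counts of leukocyte miRNAs were 5645 to 7336 in HPD and 11531 to 13240 in SD libraries, with 4 of 6 rows lower by edgeR's quasi-likelihood test. The erythroid sums were 620 to 695 in HPD and 1113 to 1646 in SD libraries, with 1 of 3 rows lower, and the single endothelial miRNA had 1012 to 1732 in HPD and 3076 to 6392 in SD libraries and was called lower. For these 3 lists the sums were apart, lower in HPD libraries. The erythroid list, however, held mir-486 only through its row matched to the genome. An unmatched row of mir-486 was more abundant, was not called and was left out of the sums and the count. Whether the erythroid sums stay apart with that row was not tested. Sums of smooth muscle and stroma miRNAs were 20744 to 65653 in HPD and 39679 to 91053 in SD libraries, with 2 of 4 rows lower, and those of epithelial miRNAs 26069 to 51100 in HPD and 39921 to 77405 in SD libraries, with 1 of 7 lower. Germ cell miRNAs, at 58368 to 68559 in HPD and 34862 to 52499 in SD libraries with 0 of 3 rows called, were apart in the other direction, higher in HPD libraries. Those of the X-linked testis cluster, at 35535 to 62193 in HPD and 33085 to 61667 in SD libraries with 0 of 10 called, overlapped. Among all 285 miRNA rows, 29.1% were called lower, and 45.3% had every HPD library below every SD library. Median log2 fold changes were −1.145 for leukocyte, −2.11 for endothelial and −1.32 for smooth muscle and stroma miRNAs. Erythroid miRNAs, at −0.53, and epithelial miRNAs, at −0.71, had medians above the −0.86 of all miRNA rows. So did germ cell miRNAs, at 0.14, and X-linked testis miRNAs, at 0.16. No marker row was at 0 in any library, somatic markers included. In whole sperm pellets, fewer cells of a type and less RNA per cell cannot be told apart, and the part of these marker shifts in the results on the clusters was not tested.

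Hairpin levels are given as deposited normalized counts, that is, reads divided by one factor per library, and fold changes come from edgeR's quasi-likelihood test on the counts, with Benjamini-Hochberg adjustment over the 1858 rows and a call at an adjusted p of at most 0.05. Of the 13 members, 2 were lower in HPD sperm and 0 higher. The background was 29.1% lower and 0.0% higher among the 285 miRNA rows, and 6.4% lower and 2.21% higher among all rows. With 13 members, 2 calls do not exceed the background of the miRNA rows. At an unadjusted p under 0.05, 3 members were lower and 0 higher, against 131 lower and 2 higher of the 285 miRNA rows. DESeq2 and limma each called 2 members lower and 0 higher. Among the 285 miRNA rows, DESeq2 called 96 lower and 1 higher, and limma 80 lower and 0 higher. The 2 members called by edgeR remained called lower when the call also asked for a 2-fold difference and more than 200 normalized counts on average. The background among miRNA rows was then 20.4%. The median log2 fold change of the members was −0.14, and 10 of 13 lay above the median of the miRNA rows.

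Both called rows were copies of mir-92a, which in mouse restrains vessel growth. The copy on chromosome 15 follows all other hairpins of its transcript. Rno-mir-92a-1 had 2736, 2330 and 2232 normalized counts in HPD2, HPD3 and HPD7, against 7480, 5805 and 6807 in CTRL1, CTRL2 and CTRL3. Every HPD library was below every SD library. The means were 2433 ± 267 in HPD and 6697 ± 843 in SD sperm (standard deviation, n = 3 each), and the log2 fold change was −1.50 (SE 0.23), a fold of 0.353 (edgeR's quasi-likelihood test, adjusted p = 0.00272). It stayed past the threshold under all 17 alternatives computed, with log2 fold changes between −1.63 and −0.71. Among the 285 miRNA rows, 70 (24.6%) had a lower log2 fold change, so a change of this size was common among sperm miRNAs.

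Rno-mir-92a-2, the X-linked copy, had 549, 402 and 362.99 normalized counts in HPD2, HPD3 and HPD7, against 937, 751 and 888 in CTRL1, CTRL2 and CTRL3. The HPD libraries again lay below the SD libraries. The log2 fold change was −1.02 (SE 0.27), a fold of 0.494, with an adjusted p of 0.0430 by edgeR's quasi-likelihood test. This call was lost without any one of the 6 libraries, where the log2 fold change ranged from −1.12 to −0.81 and the adjusted p of edgeR from 0.0792 to 0.249. With the copies summed to 1 row, mir-92a had 3286, 2732 and 2595 normalized counts in HPD libraries and 8417, 6556 and 7694 in SD libraries, and its log2 fold change was −1.46 (SE 0.22; edgeR, adjusted p = 0.00311).

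**Figure D1:**
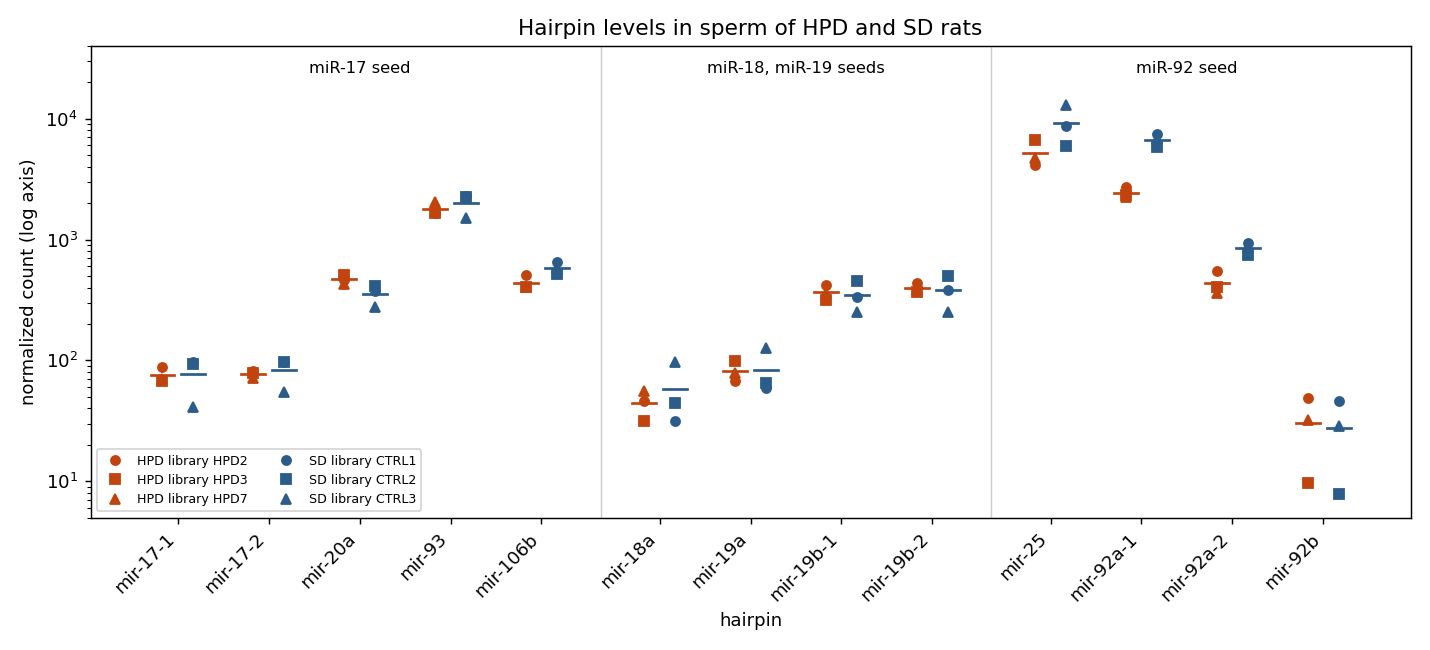
Normalized counts (log axis) of the 13 member hairpins in each library, grouped by the seed of the mature miRNA, with HPD libraries in orange to the left of SD libraries in blue and horizontal bars at the group means. Rno-mir-92a-1 and rno-mir-92a-2 are lower in all 3 HPD libraries than in all 3 SD libraries, with means of 2433 in HPD and 6697 in SD for rno-mir-92a-1.

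Rno-mir-25, the mir-92a relative at the end of the miR-106b-25 cluster, was the most abundant member. It had 4122, 6713 and 4751 normalized counts in HPD2, HPD3 and HPD7, against 8761, 5886 and 13015 in CTRL1, CTRL2 and CTRL3. The groups overlapped, since HPD3 exceeded CTRL2, and CTRL3 was the highest of all. The log2 fold change of −0.87 (SE 0.31) had an unadjusted p of 0.0174 and an adjusted p of 0.130 by edgeR's quasi-likelihood test, and did not pass. It was close to the median of miRNA rows, with 138 of 285 rows lower.

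Rno-mir-92b, whose mature miRNA shares the seed but not the clusters, was the least abundant member. It had 48.7, 9.57 and 31.9 normalized counts in HPD2, HPD3 and HPD7, against 45.8, 7.81 and 28.8 in CTRL1, CTRL2 and CTRL3. The spread within each group exceeded the difference between the groups, and the log2 fold change was 0.06 (SE 0.73; edgeR, adjusted p = 0.990). The standard error was the largest of the 13 members, and the coefficient of variation was 65.3% over HPD and 69.3% over SD libraries.

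Rno-mir-20a, of the miR-17 seed family that restrains cell cycle inhibitors, was the one member whose HPD libraries all lay above its SD libraries. It had 466, 508 and 427 normalized counts in HPD2, HPD3 and HPD7, against 376, 414 and 277 in CTRL1, CTRL2 and CTRL3. The gap between the groups was narrow, between HPD7 and CTRL2. The log2 fold change was 0.35 (SE 0.28) and did not pass (edgeR, adjusted p = 0.679), although 266 of the 285 miRNA rows (93.3%) had a lower value.

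Rno-mir-106b, the first hairpin of its transcript, is a regulator of the same cell cycle inhibitors. It had 504, 405 and 408 normalized counts in HPD2, HPD3 and HPD7, against 651, 522 and 581 in CTRL1, CTRL2 and CTRL3. All HPD libraries were below all SD libraries, by little, and the log2 fold change of −0.45 (SE 0.26) did not pass (edgeR, adjusted p = 0.467). Rno-mir-93, its neighbour with the same seed, had 1643, 1672 and 2061 in HPD2, HPD3 and HPD7, against 2283, 2253 and 1519 in CTRL1, CTRL2 and CTRL3. Its groups overlapped because CTRL3 was the lowest library, and its log2 fold change was −0.20 (SE 0.27; edgeR, adjusted p = 0.837).

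Rno-mir-17-1, the founding hairpin of the cluster, had 88.1, 67.9 and 70.6 normalized counts in HPD2, HPD3 and HPD7, against 96.5, 92.4 and 41.3 in CTRL1, CTRL2 and CTRL3. Rno-mir-17-2 had 82.3, 78.3 and 71.9 in HPD libraries and 96.5, 96.3 and 55.1 in SD libraries. CTRL3 was the lowest and the other SD libraries the highest for both rows. Their log2 fold changes of −0.08 (SE 0.42; edgeR, adjusted p = 0.967) and −0.14 (SE 0.37; adjusted p = 0.941) did not pass.

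Rno-mir-18a, which in mammals is known for targeting TGF-beta signalling, had 46.4, 31.3 and 55.6 normalized counts in HPD2, HPD3 and HPD7, against 31.5, 44.3 and 97.6 in CTRL1, CTRL2 and CTRL3. Rno-mir-19a, of the miR-19 seed, had 67.2, 99.2 and 78.7 in HPD libraries and 59.5, 65.1 and 126 in SD libraries. For both, CTRL3 was the highest of the 6 libraries. Their log2 fold changes were −0.37 (SE 0.51; edgeR, adjusted p = 0.843) and −0.06 (SE 0.40; adjusted p = 0.972), and without CTRL3 both were above 0, at 0.21 for rno-mir-18a and 0.34 for rno-mir-19a.

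Rno-mir-19b-1, the more abundant carrier of the miR-19 seed on chromosome 15, had 424, 317 and 361 normalized counts in HPD2, HPD3 and HPD7, against 337, 454 and 249 in CTRL1, CTRL2 and CTRL3. Its X-linked copy rno-mir-19b-2 had 433, 367.1 and 382 in HPD libraries and 381, 502 and 252 in SD libraries. CTRL2 was the highest and CTRL3 the lowest library for both. The log2 fold changes of 0.05 (SE 0.31; edgeR, adjusted p = 0.974) and 0.02 (SE 0.32; adjusted p = 0.990) did not pass.

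By mean level over the 6 libraries, the order was rno-mir-25, rno-mir-92a-1, rno-mir-93, rno-mir-92a-2, rno-mir-106b, rno-mir-20a, rno-mir-19b-2, rno-mir-19b-1, rno-mir-19a, rno-mir-17-2, rno-mir-17-1, rno-mir-18a and rno-mir-92b. These levels are normalized counts per hairpin and were not divided by length, and the mature miRNAs printed above are 21 to 23 bases long. Neighbours in this order had separate ranges only between rno-mir-93 and rno-mir-92a-2 and between rno-mir-19b-1 and rno-mir-19a, and all other neighbours overlapped. Among the 285 miRNA rows, rno-mir-25 ranked 38, rno-mir-92a-1 48 and rno-mir-92b 240. The most abundant miRNA row, rno-mir-26a, averaged 66982 normalized counts, far above every member. Hairpins cut from one transcript were at unlike levels: of the 6 on chromosome 15, rno-mir-92a-1 was the most abundant in every library, and rno-mir-18a the least abundant in every library but CTRL3, where rno-mir-17-1 was lower.

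Along the miR-17-92 transcript, 1 of 6 rows was lower and the median log2 fold change was −0.07, in the miR-106b-25 transcript 0 of 3 were called with a median of −0.45, and in the X-linked cluster 1 of 4 tested rows was lower with a median of −0.06. The last member hairpin, with the miR-92 seed, had the lowest value in each. In the X-linked cluster this holds for members only, since the non-member rno-mir-363, the last hairpin there, was at 0.13. By seed, the 9 members with a miR-17, miR-18 or miR-19 seed had log2 fold changes between −0.45 and 0.35, with a median of −0.08 and 0 called. The 4 members with the miR-92 seed had a median of −0.94, with 2 called lower, against −0.86 over all miRNA rows. The 2 called rows are copies of mir-92a with one mature sequence. With the non-members rno-mir-32 and rno-mir-363 added, the 6 rows of this seed had a median of −0.41. Of these 6 values, 3 were below 0 and 3 above. These medians describe the lists and carry no test.

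**Figure D2:**
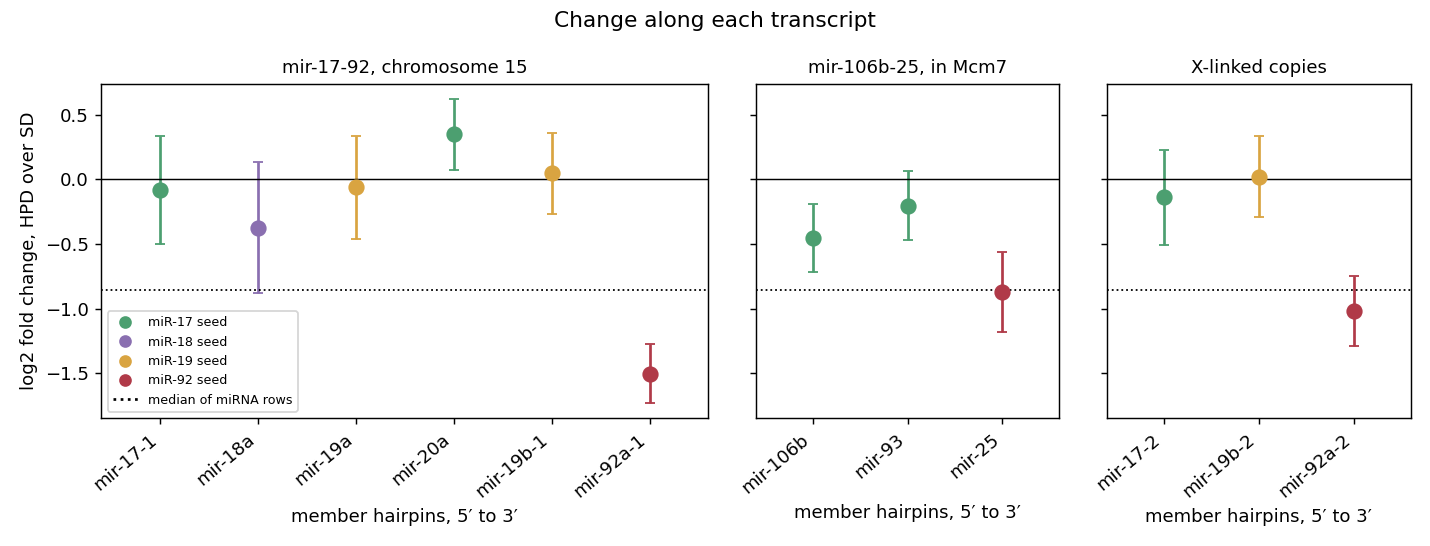
Log2 fold change of HPD over SD for the member hairpins of each transcript in 5′ to 3′ order, with bars of 1 standard error, colours for the seed and a dotted line at −0.86, the median of the miRNA rows. In each transcript the last member has the lowest value, at −1.50 for rno-mir-92a-1, −0.87 for rno-mir-25 and −1.02 for rno-mir-92a-2. Rno-mir-363, the last hairpin of the X-linked cluster, is not a member and is not drawn.

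Hairpins outside the member list that share a seed or the X-linked transcript are given for comparison. Rno-mir-32, with the miR-92 seed and a gene on chromosome 5, had 86.9, 126 and 134 normalized counts in HPD2, HPD3 and HPD7, against 106.1, 63.8 and 57.6 in CTRL1, CTRL2 and CTRL3 (log2 fold change 0.56, SE 0.39; edgeR, adjusted p = 0.622). Rno-mir-363, the last X-linked hairpin with the same seed, had 89.2, 206 and 99.7 in HPD libraries and 175, 131 and 33.8 in SD libraries (0.13, SE 0.56; edgeR, adjusted p = 0.953). In both the groups overlapped, and neither passed. Rno-mir-20b, of the miR-17 seed, had 5.79, 1.74 and 6.11 in HPD libraries and 27.4, 5.21 and 47.6 in SD libraries and did not pass the filter on low counts.

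A ratio of 2 hairpins within a library does not depend on how libraries were scaled. Each hairpin name was therefore set over the name of the last hairpin of its transcript. Reads of numbered copies were summed, so mir-17, mir-19b and mir-92a also hold reads of their X-linked copies. In all, 7 ratios were compared by a two-sided exact permutation test, whose smallest p with 3 libraries against 3 is 0.1. Mir-20a over mir-92a was 0.142, 0.186 and 0.164 in HPD2, HPD3 and HPD7, against 0.0447, 0.0631 and 0.0360 in CTRL1, CTRL2 and CTRL3. Every HPD library was above every SD library, and the mean log2 ratio was higher in HPD sperm by 1.81, or 3.50-fold (exact permutation p = 0.1, adjusted over the 7 ratios 0.175).

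Mir-17 over mir-92a was 0.0522, 0.0538 and 0.0549 in HPD libraries and 0.0230, 0.0288 and 0.0125 in SD libraries. Mir-19b over mir-92a was 0.261, 0.250 and 0.286 in HPD libraries and 0.0854, 0.146 and 0.0651 in SD libraries. Mir-19a over mir-92a was 0.0205, 0.0363 and 0.0303 in HPD libraries and 0.00707, 0.00993 and 0.0164 in SD libraries. In all of these the groups were apart, with differences of 1.41, 1.51 and 1.43 on the log2 scale in this order and the same exact permutation p of 0.1 (adjusted 0.175). Mir-18a over mir-92a was 0.0141, 0.0115 and 0.0214 in HPD libraries and 0.00374, 0.00675 and 0.0127 in SD libraries, and HPD3 fell below CTRL3 (log2 difference 1.15, exact permutation p = 0.2, adjusted 0.28).

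In the miR-106b-25 transcript the groups overlapped. Mir-106b over mir-25 was 0.122, 0.0604 and 0.0858 in HPD libraries and 0.0743, 0.0887 and 0.0446 in SD libraries (log2 difference 0.37, exact permutation p = 0.5, adjusted 0.5). Mir-93 over mir-25 was 0.399, 0.249 and 0.434 in HPD libraries and 0.261, 0.383 and 0.117 in SD libraries (0.63, exact permutation p = 0.4, adjusted 0.467). Without CTRL3 these differences were 0.08 for mir-106b and 0.15 for mir-93. Single libraries also moved them otherwise, to 0.11 without HPD2, 0.62 without HPD3 and 0.58 without CTRL2 for mir-106b, and to 1.01 without CTRL2 for mir-93. For the 4 ratios over mir-92a whose groups were apart, leaving out each library gave log2 differences between 1.06 and 2.02. With the chromosome 15 copies alone, the log2 differences over mir-92a were 1.53 for mir-17, 1.21 for mir-18a and 1.49 for mir-19a. For mir-20a and mir-19b they were 1.87 and 1.57. All 7 differences were above 0 and 4 were without overlap. However, the 5 ratios over mir-92a share their denominator and are not independent, and no p could fall below 0.1. With copies summed in the fit over all small RNAs, mir-92a had a log2 fold change of −1.46. The hairpins set over it lay between −0.39 and 0.32, so in that fit the ratios largely restate its lower level. With miRNAs fitted on their own, rno-mir-92a-1 was at −0.71 and the other members on chromosome 15 lay between 0.38 and 1.15. How each ratio divides between its numerator and its denominator therefore depends on the fit.

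**Figure D3:**
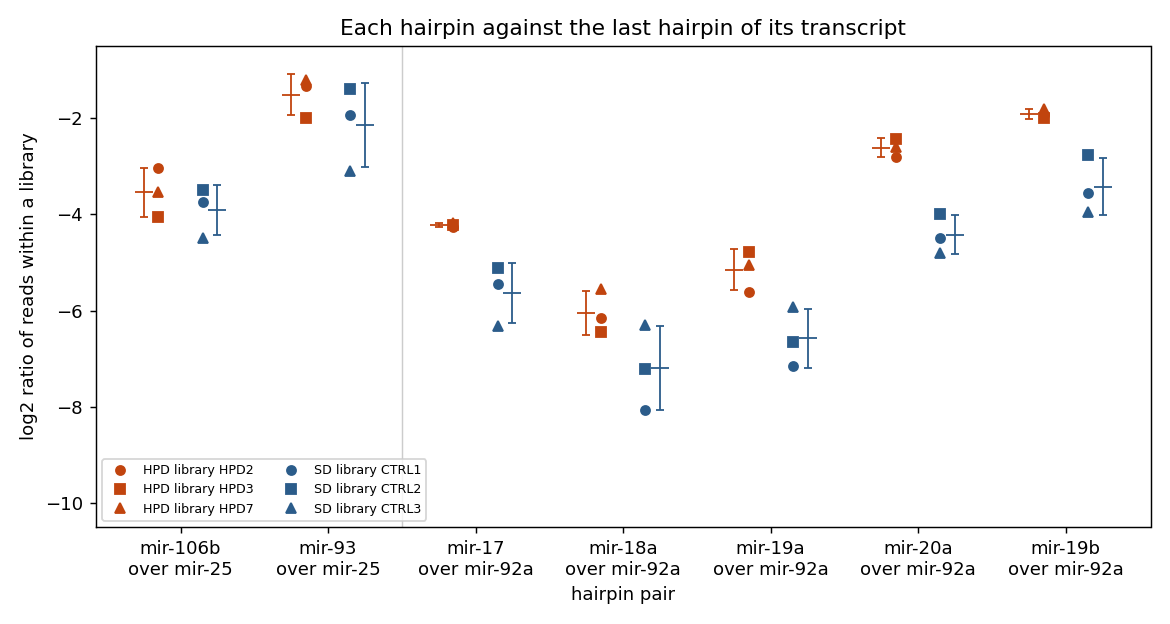
Log2 ratio of each hairpin name over that of the last hairpin of its transcript in each library. Reads of numbered copies, X-linked ones included, are summed. HPD is to the left of SD, with the mean and standard deviation beside the points. The ratios of mir-17, mir-19a, mir-20a and mir-19b over mir-92a are higher in all 3 HPD libraries, by 1.41 to 1.81 on the log2 scale, while the ratios over mir-25 overlap.

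As a share of all reads, the members together made up 0.170%, 0.194% and 0.223% in HPD2, HPD3 and HPD7, against 0.397%, 0.313% and 0.449% in CTRL1, CTRL2 and CTRL3, with Wilson 95% intervals of at most 0.00636 percentage points either side. The HPD libraries were below the SD libraries, as were the miRNA reads as a whole. As a share of the miRNA reads, the members made up 1.12%, 1.45% and 1.98% in HPD libraries and 1.37%, 1.50% and 1.93% in SD libraries, and the groups overlapped. Intervals on shares cover counting error only. Rno-mir-92a-1 alone made up 0.308 ± 0.0722% of miRNA reads in HPD and 0.514 ± 0.0362% in SD libraries (standard deviation, n = 3 each). Within the member reads, it took 20.7 ± 3.34% in HPD and 32.5 ± 3.53% in SD libraries, while rno-mir-20a took 3.95 ± 0.191% in HPD and 1.78 ± 0.648% in SD libraries.

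Because the miRNA rows had shifted together, they were also fitted on their own, with the 281 miRNA rows that passed the filter. This moved the median of the members to 0.68 and that of the miRNA rows to −0.09. Rno-mir-92a-1 stayed lower (log2 fold change −0.71, edgeR, adjusted p = 0.0404), where 16.4% of miRNA rows were called lower. Rno-mir-92a-2 did not pass (−0.25, adjusted p = 0.463), and rno-mir-25 was at −0.09 (adjusted p = 0.828). Rno-mir-20a was now called higher (1.15, SE 0.27, edgeR, adjusted p = 0.0106), as were 8.9% of the miRNA rows. Counting groups without overlap, HPD libraries lay below SD libraries in 3 members and above in 1, against 45.3% below and 2.46% above among the 285 miRNA rows. Over the 17 alternatives, rno-mir-92a-1 was called under all, rno-mir-92a-2 under 6 and rno-mir-20a under 1, and no other member under any. The alternative that summed the copies gave both rows of mir-92a the value of their sum, and it is 1 of these 6.

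**Figure D4:**
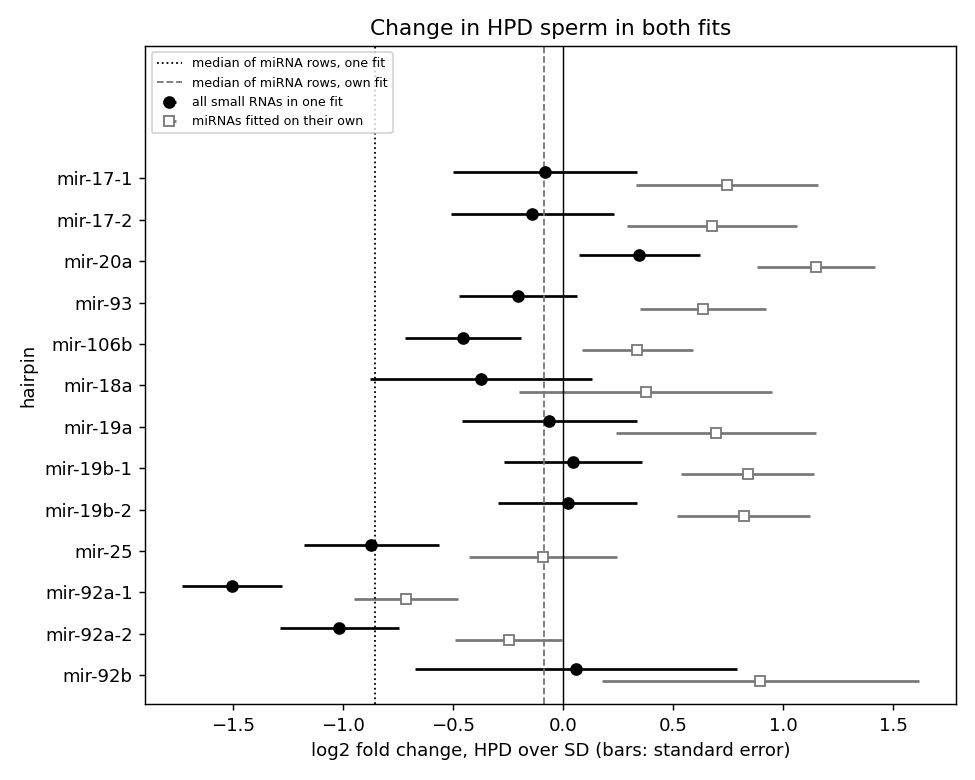
Log2 fold change of HPD over SD with 1 standard error for the 13 members, from the fit over all small RNAs (filled) and from the fit of miRNAs on their own (open squares), with vertical lines at the median of the miRNA rows in each fit, −0.86 and −0.09. Rno-mir-92a-1 lies left of both medians, and rno-mir-20a lies farthest right in both fits.

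**Figure D5:**
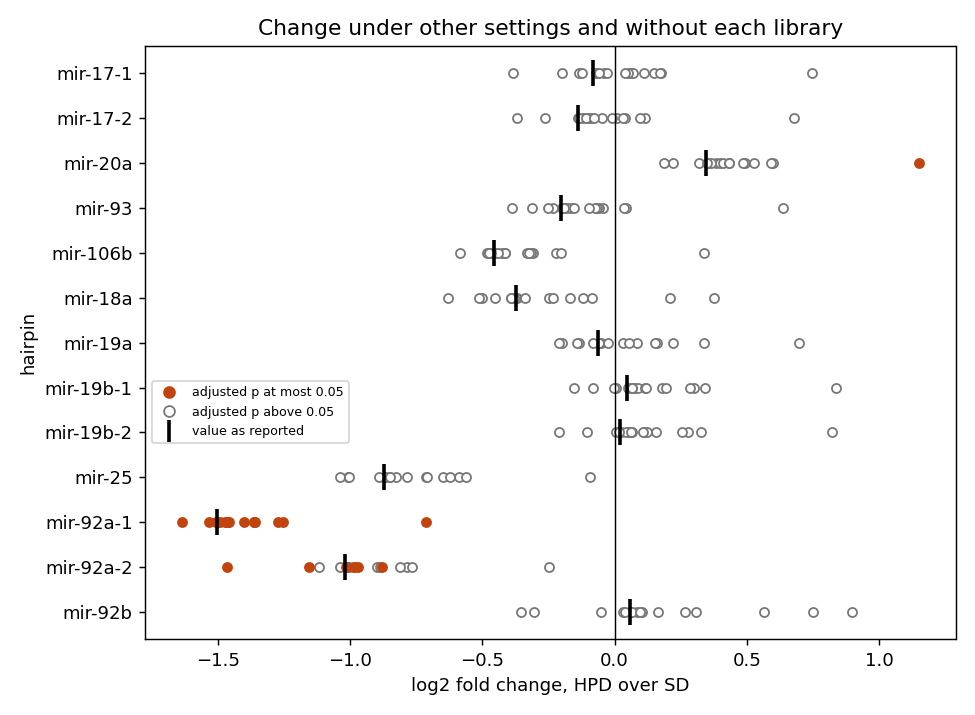
Log2 fold change of HPD over SD for each member under the alternative settings and without each library (17 values a member, 16 for rno-mir-92b, which a mean count of at least 50 left out), with filled points where the adjusted p was at most 0.05 and a bar at the value as reported. All 17 points of rno-mir-92a-1 are filled, against 6 of 17 for rno-mir-92a-2 and 1 of 17 for rno-mir-20a.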

How the data were processed

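Sequencing covered small RNA in epididymal sperm of 3 HPD and 3 SD rats. The authors trimmed adapters, discarded reads under 15 nucleotides and annotated the rest with SPORTS1.0 on Rnor_6.0 and a piRNA database. Bowtie, DESeq, DESeq2 and mm9 are listed as well in the submitters' processing notes. The deposited tables held the authors' estimated counts per row, not normalized and at times fractions of a read, and a normalized signal by the authors, which is the count cut to whole reads over 1 factor per library. Whole reads were recovered from 100% of these values (within 1e-06), and the count test on them called 164 of 1825 rows, against 160 of 1858 for the rounded estimated counts.

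Columns of the HPD libraries hold 2 differing numbers and were tied to the group only. Estimated counts were rounded and all populations were fitted together by edgeR 4.0.16 (R 4.3.3), using its quasi-likelihood test after TMM normalization, with p-values adjusted by Benjamini-Hochberg over the rows that filterByExpr kept (minimum count 10, minimum total 15), leaving out the row of the snoRNA total. Standard errors came from the F statistic. Ratios within a library were compared by exact permutation tests in SciPy 1.17.1. Alternatives used other factors (RLE, upper quartile, library size alone), miRNAs fitted on their own, DESeq2 1.42.0, limma 3.58.1 on the deposited normalized signal (log2, pseudocount 1), counts cut to whole numbers, a filter at a mean count of 50 or none, nested tRNA rows left out, summed copies, and each library left out. The edgeR fit was also run on simulated data with changes of random direction in rows drawn at random. That simulation held no shift of the miRNA rows together, so it does not bear on one, and its outcome is not given here. Figures were drawn with matplotlib 3.10.9.

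Every hairpin row of the 10 names was described, with non-members that share a seed or the X-linked cluster, and cell type marker lists were summed. Members and lists were chosen with earlier results of these data known. Nothing in the labels ties libraries to separate cages, so p-values measure the spread between these libraries.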

Additional observations from a re-analysis of the deposited data

How the results depend on the processing

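The count of members lower in HPD sperm was 2 as reported and 1 with RLE factors, upper quartile factors, miRNAs fitted on their own, no filter, nested rows left out and summed copies, and 1 to 1 when each library was left out. The count higher was 0 as reported and 1 with miRNAs on their own (rno-mir-20a). The log2 difference of the summed share was −0.98 of all reads and −0.10 of the miRNA reads. Rno-mir-92a-2 passed under 6 of 17 alternatives and rno-mir-92a-1 under all 17. Signs turned only in members that passed under no setting. With upper quartile factors, which moved the median of all rows to 0.28 against 0.03, the log2 fold changes were 0.17 for rno-mir-17-1, 0.16 for rno-mir-19a, 0.044 for rno-mir-93 and 0.11 for rno-mir-17-2. With miRNAs on their own they were 0.75 for rno-mir-17-1, 0.38 for rno-mir-18a, 0.70 for rno-mir-19a, 0.34 for rno-mir-106b, 0.64 for rno-mir-93 and 0.68 for rno-mir-17-2. Limma gave 0.063 for rno-mir-17-1 and 0.032 for rno-mir-19a. No filter gave 0.15 for rno-mir-17-1, 0.22 for rno-mir-19a, 0.035 for rno-mir-93 and 0.10 for rno-mir-17-2. A mean count of at least 50 gave 0.068 for rno-mir-17-1, 0.085 for rno-mir-19a and 0.010 for rno-mir-17-2. Library size alone gave −0.080 for rno-mir-19b-1, −0.11 for rno-mir-19b-2 and −0.049 for rno-mir-92b. Without each library in turn, the ranges were −0.39 to 0.17 for rno-mir-17-1, −0.63 to 0.21 for rno-mir-18a, −0.21 to 0.34 for rno-mir-19a, −0.15 to 0.34 for rno-mir-19b-1, −0.21 to 0.33 for rno-mir-19b-2, −0.37 to 0.039 for rno-mir-17-2 and −0.36 to 0.75 for rno-mir-92b. The cause of these turns was not tested. The log2 differences of mir-106b and mir-93 over mir-25 ranged from 0.082 to 0.62 and from 0.15 to 1.01 without each library. No paired analysis was possible because the HPD column names each hold 2 differing numbers, so no column was tied to a number in the labels, and nothing states that same-numbered HPD and SD rats were paired. Rno-mir-92b had only 7.81 to 48.7 normalized counts over the libraries, and a mean count of at least 50 gave no value for it. What counting error and the spread between libraries each add to its standard error was not tested.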

Other observations

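The ratio of the numbered copies was looked at after the levels had been seen. Rno-mir-92a-1 over rno-mir-92a-2 was 4.98, 5.80 and 6.15 in HPD2, HPD3 and HPD7, against 7.98, 7.73 and 7.67 in CTRL1, CTRL2 and CTRL3. All HPD libraries were below all SD libraries, with a log2 difference of −0.47 (two-sided exact permutation p = 0.1, the smallest that 3 libraries against 3 can give). Rno-mir-17-1 over rno-mir-17-2 was 1.07, 0.867 and 0.981 in HPD libraries and 1.0, 0.959 and 0.75 in SD libraries. Rno-mir-19b-1 over rno-mir-19b-2 was 0.979, 0.863 and 0.945 in HPD libraries and 0.885, 0.904 and 0.990 in SD libraries. Over the 6 libraries the ratio thus ran from 0.75 to 1.07 for mir-17 and from 0.863 to 0.990 for mir-19b, against 4.98 to 7.98 for mir-92a, although both copies of each name carry one mature sequence.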
